A study of Mus musculus with 12 samples.

Results

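The mouse genes of mitochondrial and peroxisomal fatty acid oxidation were followed in bulk RNA sequencing of 12 kidneys. The 49 genes were chosen by symbol from the 23420 genes of the count table. They comprised 17 enzymes of mitochondrial beta-oxidation, 9 genes of fatty acid uptake, activation and thioester cleavage, 14 peroxisomal enzymes and transporters, and 9 peroxins, the Pex proteins that build the peroxisome. Of the 49, 47 passed the filter on low counts; Eci2 and Pex11a did not and are given as levels only.

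The kidneys came from C57BL/6J male mice, 8 to 15 weeks old in the study as a whole, in 3 groups of 4. The control kidneys were taken at nephrectomy, and 2 groups of kidneys had 20 min of ischemia and 24 h of reperfusion with a tunnelled clamp that can be closed from outside the animal (the RIRI clamp). The labels attach that ischemia protocol to the control kidneys too, and no source says whether a control kidney came from an animal that also gave an ischemic kidney. Clamp positioning used ketamine and xylazine in every operated mouse, and mice called conscious were briefly sedated with isoflurane to close and open the clamp. The study asked whether anaesthesia at the time of ischemia changes the injury, but its labels contradict each other. Group A was titled ISCH_ANESTH with the group field "ISCHEMIA conscious", and group B was titled ISCH_CONCIOUS with the group field "ISCHEMIA anesthesia". The letters A and B are therefore used throughout, and nothing is read from them about anaesthesia.

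Fatty acids are taken up, coupled to coenzyme A by acyl-CoA synthetases, passed into mitochondria by the carnitine shuttle and shortened there by a repeated cycle of dehydrogenation, hydration, a further dehydrogenation and thiolysis. Electrons from the acyl-CoA dehydrogenases reach the respiratory chain through the electron transfer flavoprotein. Peroxisomes shorten very long-chain, branched and dicarboxylic acids with enzymes of their own, imported by peroxins. The proximal tubule, the longest and most energy-demanding part of the cortex, is known for covering most of its energy need with fatty acids, and many of these genes are targets of the nuclear receptor PPARA.

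Counts per kidney summed to between 15367342 and 44793350, with 10116 to 11574 genes detected. The floor used here, 3 counts, corresponded to 0.0661 to 0.190 CPM, the counts of a gene in a library scaled to 1000000 counts. The spread between kidneys was wide, with a common biological coefficient of variation of 0.762 over all genes. Group B replicate 4 was the shallowest kidney and had the fewest genes detected. Of the 49 members, 11 were at or under the floor in at least 1 kidney. The identity of the tissue was checked on marker lists. All 15 proximal tubule markers were present in the controls, the 6 adipocyte markers other than Fabp4 were at 0 in every kidney, and no marker of neutrophils or adrenal cortex exceeded 1.57 CPM in any kidney. Levels below are CPM scaled by the trimmed mean of M-values (TMM) unless stated otherwise, each ± SD over 4 kidneys. Fold changes are edgeR quasi-likelihood estimates with their standard errors (SE), and p-values were adjusted by Benjamini-Hochberg over the 11664 genes tested, with a threshold of 0.05.

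Many fatty acid oxidation genes were lower in both ischemic groups. In group A, 24 of the 49 members were lower than control and 1 was higher, where 11.7% of all genes tested were lower and 10.5% were higher. In group B, 28 were lower and 1 was higher, against 11.9% and 10.9% of all genes. The median log2 fold change of the 47 members tested was -1.21 in group A and -1.29 in group B, beside -0.02 over all genes in either ischemic group. Both comparisons use the same 4 control kidneys. By call, 21 members were lower in both ischemic groups and Acsl4 was higher in both. Acsl1, Hsd17b4 and Pecr passed only in group A, and 7 members passed only in group B, namely Acaa2, Acsm1, Acss1, Acaa1b, Phyh, Hacl1 and Pex13. Passing in a single group does not show a difference between the ischemic groups, which was tested separately and is given further on.

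The values of single kidneys showed the same contrast. For 32 of 49 members the 4 group A kidneys did not overlap the 4 controls, a separation seen in 28.2% of all genes tested, and for 31 members the group B kidneys did not overlap the controls, against 26.7% of genes. Over the 49 members, the median log2 ratio to the control mean lay between -0.12 and 0.05 in the control kidneys, between -1.24 and -0.95 in group A and between -1.22 and -0.97 in group B. No ischemic kidney came near the controls on this measure. Without group B replicate 4, 26 members were lower in group B and the median log2 fold change was -1.07.

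**Figure D1:**
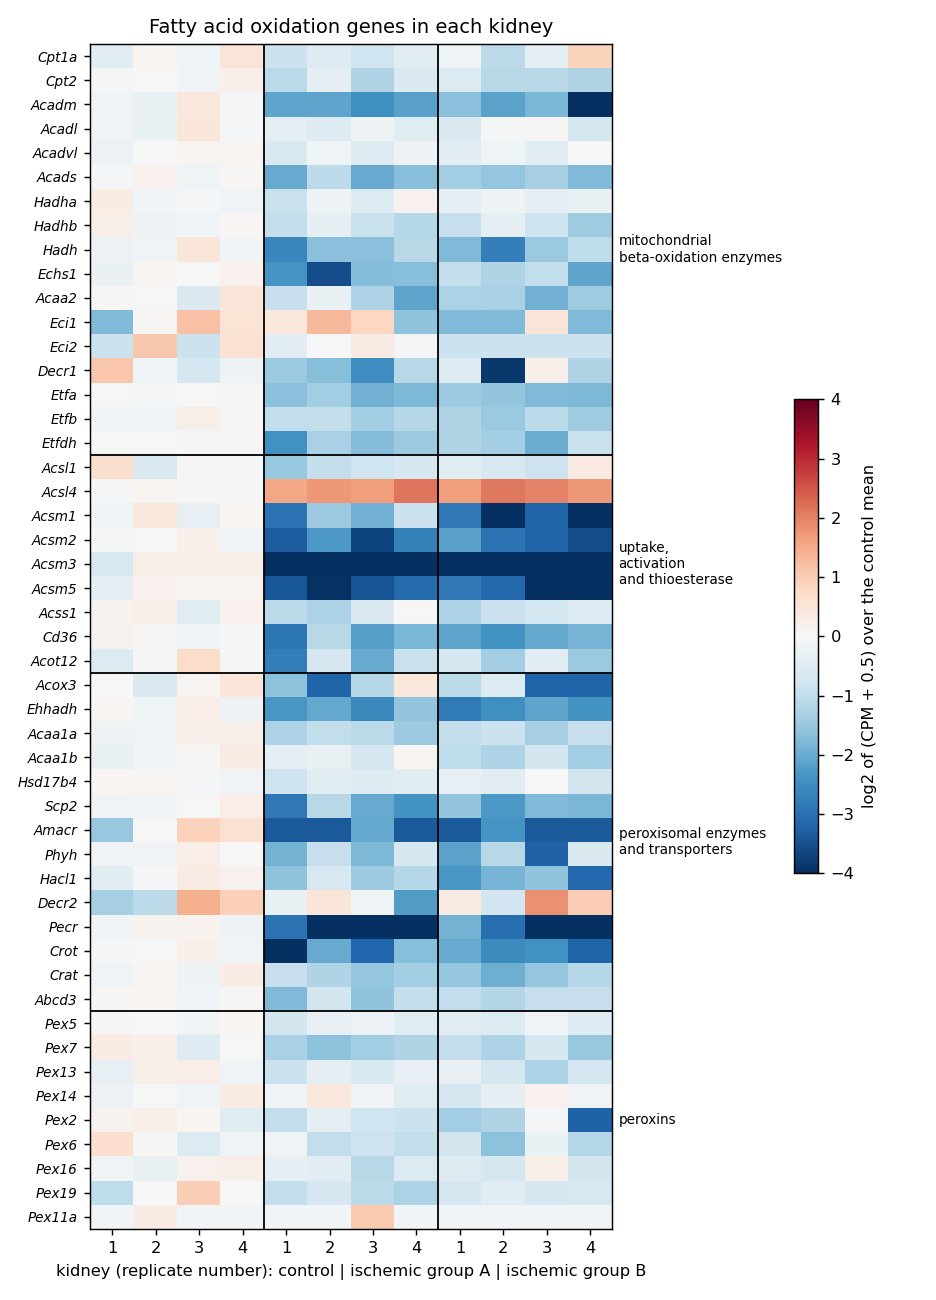
Each cell is the log2 ratio of 1 member (rows, in the 4 lists) to its control mean in 1 kidney (columns, 4 kidneys per group), on CPM plus a pseudocount of 0.5, with the colour scale ending at -4 and 4. The 8 ischemic columns are blue for most members, Acsl4 is red in all 8, and Acsm3 is the darkest row.

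In bulk tissue, fewer cells of a type and less RNA per cell cannot be told apart. Markers of the proximal tubule moved with the members. All 15 of 15 were lower in both ischemic groups, with median log2 fold changes of -2.74 and -2.82, and their summed level was 14.4% of the control mean in group A and 13.1% in group B. The sum of the 49 members was 46.5% of control in group A and 46.6% in group B, so that the proximal tubule sum stood lower than the members' sum. Without Acsl4, the member that rose, the members' sum was 39.9% and 39.4% of control. Of the 5 thick ascending limb markers, Slc12a1 and Cldn10 were lower in both ischemic groups, where 11.7% and 11.9% of all genes tested were lower. The other 3 did not pass, with 1 above 0 in group A (log2 fold change 0.16) and 2 above 0 in group B (up to 1.83). The summed level was 19.5% and 23.9% of control, with group B replicate 4 (781 CPM) above the other ischemic kidneys (285 to 398 CPM). Of the 3 distal convoluted tubule markers, Pvalb alone passed, in group B, and their summed level was 85.8% and 90.6% of control. The part of a change in cell numbers in the results below was not tested.

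**Figure D2:**
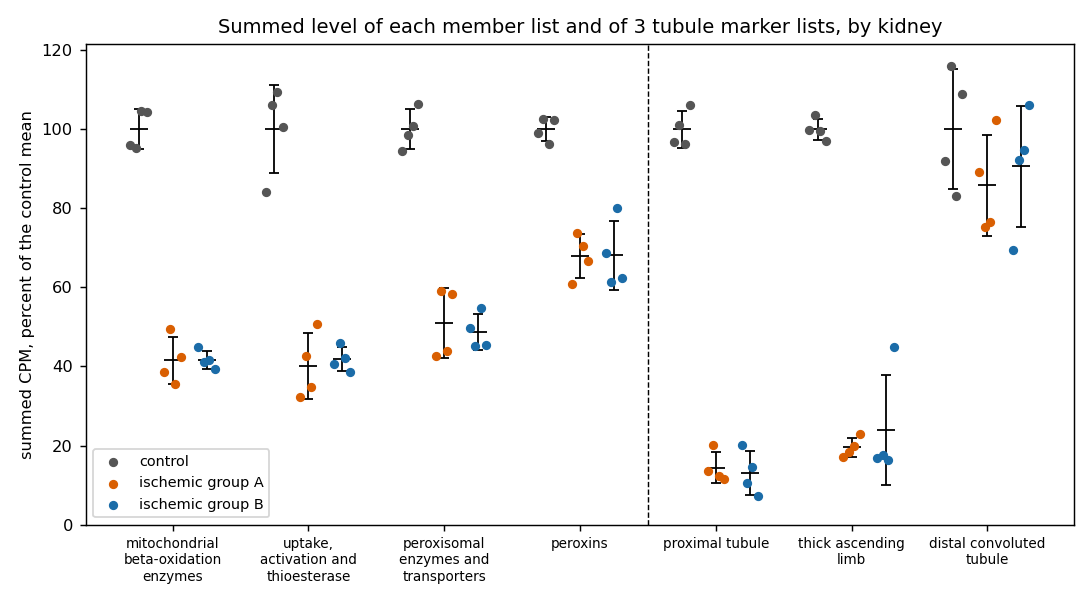
Points are the summed CPM of a list in 1 kidney as a percent of the control mean, for the 4 member lists (left of the dashed line) and 3 tubule marker lists, with means and SD (n = 4 per group). The 3 enzyme lists sit at 40.1% to 51.0% of control in the ischemic groups and the peroxins near 68%, above the proximal tubule and thick ascending limb markers and below the distal convoluted tubule markers. The uptake and activation list contains Acsl4, without which its sum was 13.1% and 12.9% of control.

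Mitochondrial beta-oxidation was described first. Of its 17 enzymes, 9 were lower in both ischemic groups and Acaa2 passed in group B only, and none was higher, where 11.7% and 11.9% of all genes tested were lower in groups A and B. The median log2 fold change of the 16 tested was -1.11 in group A and -1.29 in group B. The summed level was 1721 ± 87.2 CPM in the controls, 715 ± 101 in group A and 718 ± 39.5 in group B (SD, n = 4), a sum in which Etfa and Etfb weigh most.

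Acadm, the medium-chain acyl-CoA dehydrogenase (chromosome 3, 153922357 to 153944632, minus strand, GRCm38), had the largest change of this list that passed in both ischemic groups. Its level was 35.2, 32.2, 53.4 and 37.6 CPM in the control kidneys, 8.70, 8.56, 6.65 and 8.31 in group A, and 11.9, 8.48, 10.5 and 1.84 in group B. No ischemic kidney reached the lowest control, and group B replicate 4 lay below the other ischemic kidneys. The log2 fold change was -2.30 (SE 0.42, adjusted p = 0.000334) in group A and -2.27 (SE 0.42, adjusted p = 0.000385) in group B. Acads, the short-chain dehydrogenase, was lower as well, by 3.16-fold in group A and 2.88-fold in group B. The dehydrogenases for longer chains did not pass. Acadl had log2 fold changes of -0.42 and -0.33 in groups A and B (adjusted p = 0.225 and 0.374), and Acadvl had -0.37 and -0.25 (adjusted p = 0.171 and 0.380).

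Of the enzymes of the later steps, Echs1, Hadh and Hadhb were lower in both ischemic groups. Echs1, the short-chain enoyl-CoA hydratase (chromosome 7, 140105710 to 140116476), was at 23.1, 28.9, 27.9 and 31.3 CPM in the controls, 5.02, 1.88, 7.89 and 8.19 in group A, and 14.0, 11.7, 13.8 and 5.97 in group B. All ischemic kidneys lay below the controls, and 3 of the 4 group B kidneys lay above every group A kidney. The fold change was 4.84-fold lower in group A (adjusted p = 0.000442) and 2.44-fold lower in group B (adjusted p = 0.0281). The group B call was lost without control replicate 2, 3 or 4 or group B replicate 2 or 4, with an adjusted p of up to 0.0747. Hadh, the hydroxyacyl-CoA dehydrogenase for shorter chains (chromosome 3, 131233419 to 131272101), was at 30.8, 32.4, 51.2 and 33.3 CPM in the controls, 5.49, 11.1, 10.9 and 16.3 in group A, and 10.3, 5.06, 12.6 and 17.7 in group B. It was 3.38-fold lower in group A (adjusted p = 0.00184) and 3.23-fold lower in group B (adjusted p = 0.00254), with no overlap between ischemic and control kidneys.

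The mitochondrial trifunctional protein, which carries out the later steps on long chains, is made of the products of Hadha and Hadhb, neighbouring genes on chromosome 5. Hadhb was lower in both ischemic groups, with log2 fold changes of -0.85 (SE 0.25, adjusted p = 0.0177) and -0.87 (SE 0.25, adjusted p = 0.0150). Its call in group A was lost without control replicate 1 or without group A replicate 1, 3 or 4 (adjusted p of up to 0.0689), and its call in group B without control replicate 1 (adjusted p = 0.0546). Hadha did not pass, at -0.33 and -0.32 (adjusted p = 0.324 and 0.350). Acaa2, the mitochondrial thiolase, was lower in group B (log2 fold change -1.60, adjusted p = 0.0204) and stood at -1.10 in group A (adjusted p = 0.113). Its call in group B was lost without control replicate 4 or group B replicate 3 (adjusted p of up to 0.0958).

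The electron transfer flavoprotein system was lower throughout. Etfa and Etfb, the 2 subunits of the flavoprotein, had the highest levels per exon length of all members in the controls, at 396 and 296 CPM per kilobase of merged exon (RPKM). Etfa was at 719, 691, 738 and 758 CPM in the controls, 227, 277, 192 and 208 in group A, and 265, 242, 212 and 208 in group B. Both ischemic groups were far below the controls and overlapped each other, and the log2 fold changes were -1.68 (SE 0.13, adjusted p = 1.15e-08) and -1.65 (SE 0.13, adjusted p = 1.59e-08). Etfb was 2.17-fold and 2.46-fold lower. Etfdh, the oxidoreductase that passes the electrons on to ubiquinone (chromosome 3, 79603788 to 79629500), was at 55.3, 54.4, 51.6 and 56.7 CPM in the controls, 9.65, 21.7, 16.0 and 19.6 in group A, and 23.4, 20.9, 13.4 and 29.3 in group B. It was 3.26-fold lower in group A (adjusted p = 0.000117) and 2.51-fold lower in group B (adjusted p = 0.00123).

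The carnitine shuttle was split. Cpt2, the inner membrane enzyme, was lower in both ischemic groups (log2 fold changes -0.79 and -0.99, adjusted p = 0.00631 and 0.00101). Cpt1a, the outer membrane carnitine palmitoyltransferase and the regulated entry step (chromosome 19, 3322334 to 3385733), did not pass in either ischemic group. It was at 13.3, 18.9, 16.1 and 26.2 CPM in the controls, 9.75, 12.5, 10.2 and 13.5 in group A, and 15.9, 8.54, 13.5 and 33.9 in group B. Group B spanned the whole control range, with replicate 4 the highest of all 12 kidneys and replicate 2 the lowest. The log2 fold changes were -0.70 (SE 0.38, adjusted p = 0.234) and -0.05 (SE 0.38, adjusted p = 0.959). Slc25a20, the carnitine-acylcarnitine carrier between these enzymes and not among the 49, was at -0.24 (SE 0.30, adjusted p = 0.699) and 0.01 (SE 0.30, adjusted p = 0.988).

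The auxiliary enzymes for unsaturated fatty acids were low and did not pass by edgeR with all kidneys. Eci1 was between 0 and 3.68 CPM over the 12 kidneys. Decr1 was at 14.9, 6.03, 3.97 and 5.83 CPM in the controls, 2.13, 1.75, 0.793 and 2.89 in group A, and 4.45, 0, 7.88 and 2.67 in group B. Group A did not overlap the controls and group B did, with log2 fold changes of -2.02 (SE 0.99, adjusted p = 0.173) and -1.03 (SE 0.97, adjusted p = 0.545). Decr1 was called lower in group A in 1 of 19 alternatives, the fit of group A and the controls alone (adjusted p = 0.0398). Eci2 was at 0, 1.40, 0 and 0.862 CPM in the controls and between 0.159 and 0.617 in group A. It had 0 counts in all 4 group B kidneys, which at the floor of 3 counts per kidney is at least 3.62-fold below the control mean and at least 2.43-fold below the group A mean.

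**Figure D3:**
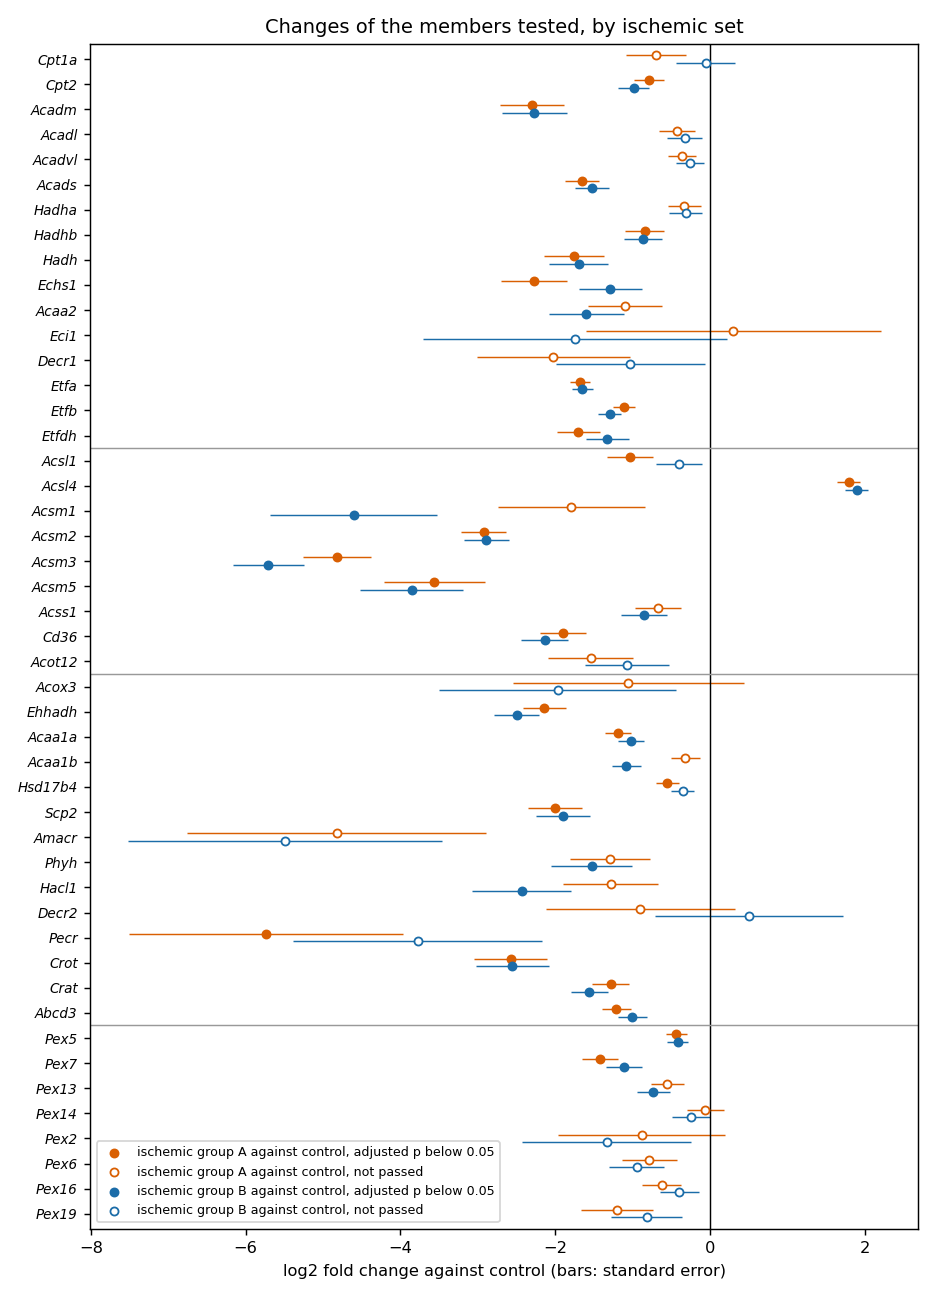
Log2 fold changes against control with SE for the 47 members tested (rows, lists separated by grey lines), for group A (orange) and group B (blue); filled points passed the adjusted threshold. Filled points lie left of 0 except for Acsl4, and the widest bars belong to members with few counts.

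Uptake and activation held the largest decreases among the members that passed in both ischemic groups, and the rise. Of 9 genes, 5 were lower in group A and 6 in group B, against 11.7% and 11.9% of all genes tested, and 1 was higher in each, against 10.5% and 10.9%. Their median log2 fold changes were -1.79 and -2.13. The summed level was 1223 ± 137 CPM in the controls, 490.3 ± 102 in group A and 512 ± 38.2 in group B, and most of the ischemic sum was Acsl4. Without Acsl4, which was left out after its values were seen, the other 8 summed to 1124 ± 133 CPM in the controls, 148 ± 46.5 in group A and 145 ± 26.0 in group B, or 13.1% and 12.9% of control.

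The medium-chain acyl-CoA synthetases Acsm5, Acsm2, Acsm1 and Acsm3 lie in that order on the plus strand of chromosome 7, from 119519463 to 119787513. Acsm3 was at 280.8, 521, 511 and 509 CPM in the controls, 15.4, 23.9, 5.33 and 20.5 in group A, and 10.4, 9.81, 2.61 and 12.1 in group B. Every ischemic kidney was far below every control, and control replicate 1 was well below the other controls. The decrease was 28.2-fold in group A (log2 fold change -4.82, SE 0.44, adjusted p = 8.92e-08) and 52.3-fold in group B (-5.71, SE 0.46, adjusted p = 1.87e-08). Per exon length, Acsm3 ranked 4 among the 49 members in the controls, at 92.3 RPKM, and ranked 26 in group A and 35 in group B, at 3.30 and 1.77 RPKM.

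Acsm2 was at 404, 427, 489 and 381 CPM in the controls, 42.1, 85.3, 32.4 and 64.3 in group A, and 93.8, 54.0, 45.6 and 35.4 in group B. It was 7.60-fold and 7.42-fold lower, and no kidney overlapped. Acsm5 was at 55.6, 79.4, 75.6 and 76.3 CPM in the controls, 6.29, 4.15, 5.99 and 7.89 in group A, and 9.30, 7.53, 2.80 and 0 in group B. The fold changes were 11.8-fold in group A (adjusted p = 0.000370) and 14.5-fold in group B (adjusted p = 0.00020), with group B replicate 4 at 0 counts. Acsm1 had few counts, with a mean of 10.5 ± 2.49 CPM in the controls, 3.04 ± 1.93 in group A and 0.414 ± 0.493 in group B, where 2 kidneys were at 0. It passed in group B (log2 fold change -4.60, SE 1.08, adjusted p = 0.00348, and -5.47 without group B replicate 1) and not in group A (-1.79, SE 0.95, adjusted p = 0.212).

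Acsl4, a long-chain synthetase with a preference for arachidonate and related polyunsaturated acids (chromosome X, 142317993 to 142390535), was the only member that rose. It was at 93.8, 104, 102 and 95.4 CPM in the controls, 289, 330.3, 315 and 436 in group A, and 317, 430, 396 and 327 in group B. Every ischemic kidney was far above the highest control, and the ischemic groups overlapped each other. The rise was 3.46-fold in group A (log2 fold change 1.79, SE 0.15, adjusted p = 2.17e-08) and 3.72-fold in group B (1.89, SE 0.15, adjusted p = 1.12e-08). Acsl1, the main long-chain synthetase of oxidative tissues, was lower in group A (-1.03, SE 0.30, adjusted p = 0.0174) and stood at -0.40 in group B (SE 0.30, adjusted p = 0.414). The group A call was lost without control replicate 1 or group A replicate 1 (adjusted p of up to 0.0950).

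Cd36, a membrane protein that takes up long-chain fatty acids (chromosome 5, 17781690 to 17888801), was at 77.7, 73.8, 65.1 and 67.2 CPM in the controls, 9.11, 32.7, 14.9 and 19.6 in group A, and 15.9, 13.1, 16.6 and 19.0 in group B. It was 3.73-fold lower in group A (adjusted p = 7.86e-05) and 4.39-fold lower in group B (adjusted p = 2.36e-05), and group A replicate 2 was the ischemic kidney nearest to the controls. Acss1, the mitochondrial acetyl-CoA synthetase, was lower in group B (log2 fold change -0.85, adjusted p = 0.0443) and at -0.67 in group A (adjusted p = 0.121). The group B call was lost with RLE size factors and in 8 of the 12 fits that left out 1 kidney, those without control replicate 1, 2 or 4, group A replicate 1 or 3, or group B replicate 1, 2 or 3 (adjusted p of up to 0.110). Acot12, a cytosolic acetyl-CoA thioesterase, did not pass by edgeR, at -1.54 (adjusted p = 0.0525) and -1.07 (adjusted p = 0.186). In group A it was called lower in 5 of 19 alternative fits, those of DESeq2 and limma-trend, the fit of group A and the controls alone, and those without group A replicate 2 or group B replicate 4 (adjusted p down to 0.0302).

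**Figure D4:**
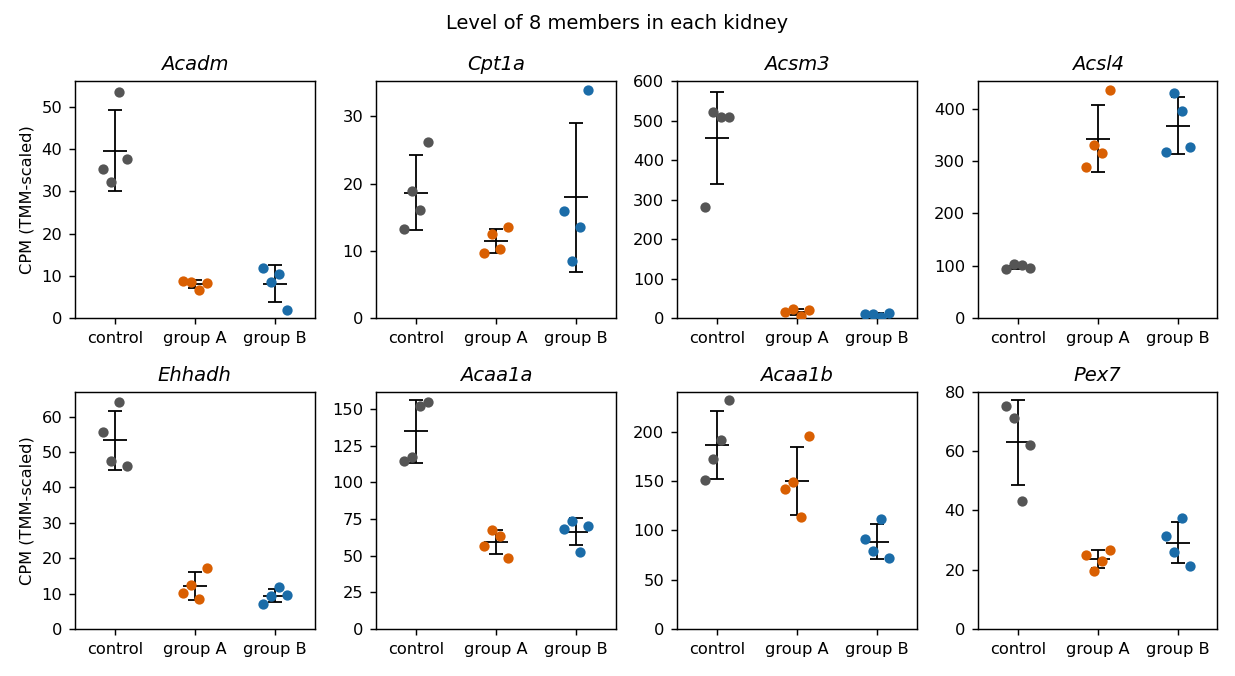
CPM of 8 members in each kidney (points), with mean and SD (n = 4 per group) on linear axes from 0. Acadm, Acsm3, Ehhadh, Acaa1a and Pex7 are lower in both ischemic groups, Acsl4 is higher, Cpt1a overlaps between groups, and Acaa1b passed in group B and not in group A, a difference between the ischemic groups that did not pass by edgeR.

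PPARA and its partner receptor bind direct repeats of the half-site AGGTCA with 1 base between. The RefSeq promoter windows of the members (GRCm38.p6, 250 bases before to 50 after a start) were searched on both strands for AGGTCANAGGTCA with at most 2 of the 12 half-site letters changed. Windows were held for 42 of the 49 members. A match lay in those of 4, or 9.52%, and in those of 1190 of 27025 genes with a window, or 4.40%. A match of letters is a description and no binding site. The 4 windows are printed because they hold the match. That of Cd36 belongs to a start inside the span given above for the gene, away from its 5′ end. Use of that start in kidney was not tested. Cd36, Echs1 and Etfa fell in both ischemic groups, and Acot12, whose match has 1 changed letter rather than 2, lay near the threshold in group A as given above. They run 5′ to 3′ on the strand of the gene with the match in capitals, from 63 to 51 bases before the start in Cd36 (chr5:17835847-17836146, minus strand), 83 to 71 in Echs1 (chr7:140116372-140116671, minus strand), 77 to 65 in Etfa (chr9:55512194-55512493, minus strand) and 110 to 98 in Acot12 (chr13:91741271-91741570, plus strand).
Cd36: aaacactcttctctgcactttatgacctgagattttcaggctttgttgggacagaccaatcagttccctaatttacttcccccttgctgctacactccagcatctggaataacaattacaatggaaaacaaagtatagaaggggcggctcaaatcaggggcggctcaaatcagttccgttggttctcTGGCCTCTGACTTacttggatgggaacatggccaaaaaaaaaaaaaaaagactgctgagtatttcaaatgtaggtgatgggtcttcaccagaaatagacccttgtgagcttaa
Echs1: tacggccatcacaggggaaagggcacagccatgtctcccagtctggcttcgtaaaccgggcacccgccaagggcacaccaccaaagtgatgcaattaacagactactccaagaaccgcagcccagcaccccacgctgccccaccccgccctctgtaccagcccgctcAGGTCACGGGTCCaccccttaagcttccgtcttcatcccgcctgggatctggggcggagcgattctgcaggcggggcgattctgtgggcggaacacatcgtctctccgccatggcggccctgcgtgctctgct
Etfa: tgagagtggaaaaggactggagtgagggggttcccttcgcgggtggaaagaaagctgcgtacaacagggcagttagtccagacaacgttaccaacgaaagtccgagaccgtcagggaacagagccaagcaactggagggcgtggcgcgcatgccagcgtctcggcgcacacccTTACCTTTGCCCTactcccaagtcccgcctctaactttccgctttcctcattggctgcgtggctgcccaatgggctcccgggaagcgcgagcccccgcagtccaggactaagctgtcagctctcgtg
Acot12: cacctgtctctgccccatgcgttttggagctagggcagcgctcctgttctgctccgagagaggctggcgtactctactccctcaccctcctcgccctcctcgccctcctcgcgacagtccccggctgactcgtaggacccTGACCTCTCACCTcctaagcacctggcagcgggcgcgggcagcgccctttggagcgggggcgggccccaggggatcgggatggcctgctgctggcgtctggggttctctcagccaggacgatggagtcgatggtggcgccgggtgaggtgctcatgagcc

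Peroxisomal oxidation followed the mitochondrial enzymes. Of the 14 peroxisomal enzymes and transporters, all of which were tested, 8 were lower in group A and 9 in group B, with 6 lower in both and none higher, against 11.7% and 11.9% of all genes tested that were lower. The median log2 fold changes were -1.28 and -1.73. The summed level was 1062 ± 52.8 CPM in the controls, 541 ± 94.9 in group A and 518 ± 48.2 in group B.

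Abcd3, the ATP-driven transporter that brings acyl-CoA into the peroxisome, was 2.31-fold and 2.01-fold lower. Ehhadh, the bifunctional hydratase and dehydrogenase of the straight-chain pathway (chromosome 16, 21761287 to 21787807), was at 55.7, 47.4, 64.2 and 46.0 CPM in the controls, 10.1, 12.5, 8.53 and 17.3 in group A, and 6.97, 9.30, 11.8 and 9.71 in group B. The log2 fold changes were -2.14 (SE 0.28, adjusted p = 9.68e-06) and -2.50 (SE 0.29, adjusted p = 1.85e-06), and no kidney overlapped the controls. Hsd17b4, the corresponding enzyme of the branched-chain pathway, was lower in group A (-0.55, adjusted p = 0.0122) and at -0.35 in group B (adjusted p = 0.109). Its group A call was lost without group A replicate 1 (adjusted p = 0.0675).

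The straight-chain thiolase is encoded by a pair of close paralogues on chromosome 9, Acaa1a (119339676 to 119350299, plus strand) and Acaa1b (119148023 to 119157093, minus strand). Reads shared by the copies could have been divided or dropped in counting. Acaa1a was at 115, 117, 152 and 155 CPM in the controls, 56.9, 67.3, 63.6 and 48.6 in group A, and 68.5, 73.8, 52.8 and 70.5 in group B. It was 2.28-fold lower in group A (adjusted p = 2.80e-05) and 2.03-fold lower in group B (adjusted p = 0.000145), with the 2 ischemic groups overlapping. Acaa1b was at 151, 173, 192 and 233 CPM in the controls, 142, 149, 114 and 196 in group A, and 91.3, 78.9, 112 and 71.6 in group B. Here group A overlapped the controls (log2 fold change -0.32, SE 0.18, adjusted p = 0.265), while every group B kidney lay below every group A kidney and every control (-1.08, SE 0.19, adjusted p = 0.00020).

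Scp2, whose longer product is the thiolase for branched chains and whose shorter product carries sterols (chromosome 4, 108043839 to 108144998), was at 38.4, 39.3, 43.1 and 51.3 CPM in the controls, 5.40, 19.6, 10.3 and 7.83 in group A, and 14.1, 8.22, 12.2 and 11.6 in group B. It was 4.00-fold lower in group A (adjusted p = 0.000229) and 3.73-fold lower in group B (adjusted p = 0.000383). The annotation places Podn within the span of Scp2 on the same strand. Crot, the carnitine acyltransferase that exports shortened medium-chain acids (chromosome 5, 8966033 to 8997324), was at 51.8, 55.6, 63.9 and 49.5 CPM in the controls, 1.81, 13.3, 5.62 and 16.6 in group A, and 13.1, 8.98, 9.91 and 5.46 in group B. It was 5.95-fold and 5.88-fold lower (adjusted p = 0.000372 and 0.000406). Crat, which does the same for acetyl groups (chromosome 2, 30400471 to 30415813), was at 48.0, 55.8, 45.8 and 64.8 CPM in the controls, 27.5, 22.7, 17.8 and 20.2 in group A, and 18.0, 13.3, 17.8 and 23.9 in group B, and was 2.43-fold and 2.94-fold lower (adjusted p = 0.000453 and 6.80e-05). For Scp2, Crot and Crat alike, the highest ischemic kidney stayed below the lowest control.

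Alpha-oxidation removes 1 carbon from branched acids such as phytanic acid. Phyh, the hydroxylase, was at -1.53 in group B (adjusted p = 0.0403) and -1.29 in group A (adjusted p = 0.0841), and Hacl1, the lyase, was at -2.43 (adjusted p = 0.00842) and -1.28 (adjusted p = 0.160) on the log2 scale. The Phyh call in group B was lost in 7 of 12 fits that left out 1 kidney, those without any single control or without group B replicate 1, 2 or 3 (adjusted p of up to 0.101), and when group A was left out of the fit. In group A Phyh was called lower in 4 of 19 alternatives, those with the block, with group A and the controls alone, and without group B replicate 3 or 4 (adjusted p down to 0.0158). Pecr, a trans-enoyl-CoA reductase, was between 6.61 and 8.53 CPM in the controls and at 0 in 3 of the 4 group A kidneys and 2 of the 4 group B kidneys. It passed in group A (log2 fold change -5.74, SE 1.78, adjusted p = 0.0239) and not in group B (adjusted p = 0.105). The size in group A rests on replicate 1, the only kidney of that group above 0. It was -8.66 with the replicate number as a block and -10.65 without group A replicate 1, which left that group at 0 counts. In group B it was called lower in 4 of 19 alternatives, those of limma-trend, the fit of group B and the controls alone, the block and the fit without group B replicate 1 (adjusted p down to 0.00660). The group A call was lost without control replicate 2 or 3 or group A replicate 2, 3 or 4 (adjusted p of up to 0.0575). Amacr, the racemase for branched acids, was between 1.30 and 9.34 CPM in the controls and at 0 in 3 kidneys of each ischemic group, and did not pass (adjusted p = 0.0847 and 0.0582). It passed in 4 of 19 alternative fits in group A and in 8 of 19 in group B. Acox3 and Decr2 were below 10 CPM in all kidneys and did not pass in either ischemic group.

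Of the 9 peroxins, Pex5 and Pex7 were lower in both ischemic groups and Pex13 in group B, and none was higher. These were 22.2% of the list in group A and 33.3% in group B, where 11.7% and 11.9% of all genes tested were lower. The median log2 fold changes of the 8 tested were -0.71 and -0.77, and the summed level was 68.0% of control in group A and 68.1% in group B. The difference between the peroxins and the enzyme lists was not tested.

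Pex5 and Pex7 are the receptors that bring matrix enzymes with the first and the second type of targeting signal to the peroxisome. Pex5 (chromosome 6, 124396816 to 124415067) was at 267, 263, 241 and 274 CPM in the controls, 157, 206, 224 and 186 in group A, and 190, 179, 231 and 182 in group B. Neither ischemic group overlapped the controls, but the change was small, with log2 fold changes of -0.44 (SE 0.13, adjusted p = 0.0236) and -0.42 (SE 0.13, adjusted p = 0.0299). The group A call was lost without control replicate 1, 2 or 4 or group A replicate 1 (adjusted p of up to 0.125). The group B call was lost without control replicate 1, 2 or 4 or group B replicate 1, 2 or 4 (adjusted p of up to 0.0719). Pex7 (chromosome 10, 19853900 to 19907689) was at 75.4, 71.2, 43.3 and 62.0 CPM in the controls, 24.9, 19.6, 23.1 and 26.7 in group A, and 31.5, 26.0, 37.5 and 21.4 in group B. It was 2.67-fold lower in group A (adjusted p = 0.000132) and 2.16-fold lower in group B (adjusted p = 0.00129), with group B replicate 3 closest to control replicate 3.

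Pex13, part of the docking complex, was lower in group B (-0.73, adjusted p = 0.0155) and at -0.55 in group A (adjusted p = 0.0699), and its group B call was lost without control replicate 2 or 3 (adjusted p of up to 0.0514). Pex14, its partner, was at -0.06 and -0.25 (adjusted p = 0.925 and 0.570). Pex2 and Pex6, of receptor recycling, and Pex16 and Pex19, of membrane protein insertion, had log2 fold changes between -1.33 and -0.40 in the 2 ischemic groups and did not pass by edgeR with all kidneys. Pex19 was called lower in group A by DESeq2 and without control replicate 1 (adjusted p = 0.0301 in the latter). Pex6 passed in group B without control replicate 3 or group B replicate 3 (adjusted p down to 0.0249), and Pex16 in both ischemic groups without group B replicate 3 (adjusted p = 0.0412 and 0.0466). Pex11a, of peroxisome division, was above 0 in 1 control kidney and 1 group A kidney only.

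The ischemic groups were then compared with each other. By edgeR and by limma-trend 0 of the 47 members tested passed, by DESeq2 1 did, and by edgeR 1 of all genes did (0.00857%). That gene was Slc5a12, a lactate cotransporter and 1 of the 15 proximal tubule markers, at 13.6 ± 3.36 CPM in group A and 48.96 ± 23.4 in group B beside 137 ± 15.3 in the controls. It was 3.60-fold higher in group B than in group A (adjusted p = 0.0328), with no overlap, and it passed in 7 of 19 alternatives, over which the adjusted p ran from 1.42e-06 to 0.696. At an unadjusted p under 0.05, 3 members were lower in group B and 1 was higher, 4 in all, where 5.03% of genes passed. The median log2 difference was 0.02. For 2 of the 49 members the 4 kidneys of the ischemic groups did not overlap, Acaa1b and Eci2, where 2.61% of genes tested were separated in this way. Eci2 was not among the genes tested, and had 0 counts in every group B kidney and 5 to 28 counts in group A.

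Acaa1b differed most by p among the members, with group B 1.70-fold below group A (log2 difference -0.76, SE 0.19, unadjusted p = 0.000565, adjusted p = 0.507). All 4 group B kidneys were below all 4 group A kidneys. DESeq2 called it (adjusted p = 0.0471), and was the only 1 of 19 alternatives to do so, over which the adjusted p ran from 0.0471 to 0.9999 and the log2 difference from -0.90 to -0.61. Acsm1 was 7.001-fold lower in group B (unadjusted p = 0.0115, adjusted p = 0.930), a value that became 12.6-fold without group B replicate 1, and Acsm3 1.85-fold lower (unadjusted p = 0.0352, adjusted p = 0.962). Echs1 was 1.98-fold higher in group B (unadjusted p = 0.0265, adjusted p = 0.941). These 3 passed the adjusted threshold under none of the 19 alternatives. A p that misses the threshold does not show that the ischemic groups responded alike, and the SE of the difference exceeded 1 log2 unit for members with few counts, such as Eci1 and Amacr.

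Other genes of fatty acid oxidation, peroxisomes and their regulation, outside the 49, were read from a further list. Of its 100 genes, 98 were in the table and 85 were tested. In group A 35 were lower and 4 higher, where 11.7% and 10.5% of all genes tested were, and in group B 38 were lower and 4 higher, against 11.9% and 10.9%, with 33 lower in both and the same 4 higher in both. Their median log2 fold changes were -1.13 and -0.97. Among the mitochondrial genes 13 and 12 of 22 were lower, among the genes of uptake and activation 5 and 5 of 21, among the peroxisomal genes 10 and 13 of 25, among the regulators 6 and 7 of 14, and among the further peroxins none of 6 passed by edgeR, with 0 and 3 at an unadjusted p under 0.05, 0 and 1 by DESeq2 and 0 and 0 by limma-trend.

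The decreases included enzymes of the peroxisome and of the cytosol. Cat, the catalase that removes hydrogen peroxide in peroxisomes, was at 508 ± 33.5 CPM in the controls, 175 ± 59.2 in group A and 142 ± 27.7 in group B (-1.54 and -1.84, adjusted p = 4.39e-06 and 5.59e-07). Acss2, the cytosolic acetyl-CoA synthetase, fell from 1335 ± 118 CPM to 131 ± 43.9 and 123 ± 24.0, a decrease of 10.2-fold and 10.9-fold. Neither Cat nor Acss2 overlapped between ischemic and control kidneys.

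The other 3 largest decreases rested on fewer counts. Pipox, the peroxisomal sarcosine oxidase, was 15.9-fold lower in group A (adjusted p = 0.00331) and 5.88-fold lower in group B (adjusted p = 0.0401), and the group B call was lost with DESeq2 and without any single control or group B replicate 1 or 3 (adjusted p of up to 0.135). The decrease was 26.5-fold without group A replicate 2 in group A and 8.92-fold without group B replicate 2 in group B. Nudt19, a peroxisomal coenzyme A hydrolase, had a control mean of 6.55 ± 3.47 CPM and 0 counts in every group B kidney, at least 41.8-fold lower at the floor. In group A its log2 fold change was -5.08 (adjusted p = 0.0277) and ran from -6.11 to -4.64 over the alternative fits. The group A call of Nudt19 was lost without control replicate 2, 3 or 4 or group A replicate 1, 2 or 3 (adjusted p of up to 0.136). Acad12, an acyl-CoA dehydrogenase, had a control mean of 1.88 ± 0.889 CPM and 0 counts in all 8 ischemic kidneys, at least 16.0-fold lower in group A and at least 12.01-fold lower in group B. Both of its calls were lost without any single kidney of the groups compared (adjusted p of up to 0.0887 in group A and 0.0975 in group B).

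The 4 genes that rose were all on the list of known PPARA targets. Of 10 such targets outside the other lists, 8 were tested, and 4 rose and Cyp4b1 fell in both ischemic groups. The other 3 tested did not pass, and 3 of the 8 had log2 fold changes below 0 in each ischemic group. Of all genes tested, 10.5% and 10.9% were higher and 11.7% and 11.9% were lower in groups A and B. Plin2, the coat protein of lipid droplets, was at 10.3, 10.1, 11.5 and 10.8 CPM in the controls, 111, 138, 135 and 166 in group A, and 108, 101, 77.4 and 64.1 in group B. It rose 12.9-fold in group A (log2 fold change 3.69, SE 0.20, adjusted p = 1.32e-10) and 8.18-fold in group B (3.03, SE 0.20, adjusted p = 1.25e-09). Every group B kidney lay below every group A kidney, a difference that did not pass by edgeR (log2 difference -0.65, unadjusted p = 0.00195, adjusted p = 0.887).

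Pdk4, a kinase that holds pyruvate dehydrogenase inactive, rose 4.37-fold and 4.73-fold, from 7.90 ± 3.39 CPM to 34.5 ± 13.9 and 37.4 ± 13.8. Ucp2, an uncoupling protein of the inner mitochondrial membrane, rose 2.93-fold and 2.69-fold, from 92.8 ± 23.4 CPM to 272 ± 93.1 and 250.2 ± 83.1. Cyp4a14, a fatty acid omega-hydroxylase, was at 0.480, 0.780, 0 and 0 CPM in the controls, 17.8, 10.4, 14.6 and 10.96 in group A, and 3.67, 10.4, 11.8 and 0.0635 in group B. It rose in both ischemic groups (log2 fold changes 5.39 and 4.34, adjusted p = 0.00270 and 0.0101), but group B replicate 4 overlapped the controls, and the group B call was lost when group A was left out of the fit (adjusted p = 0.0720). Without control replicate 2, the higher of the 2 controls above 0, the log2 fold changes were 6.51 and 5.44.

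Ppara itself was low, at 11.3 ± 4.06 CPM in the controls, 3.01 ± 2.69 in group A and 5.12 ± 1.11 in group B. Its kidneys did not overlap the controls in either ischemic group, yet the changes did not pass (log2 fold changes -1.91, adjusted p = 0.0554, and -1.13, adjusted p = 0.277), and it passed under 4 of 19 alternatives in group A. Ppargc1a, the coactivator that drives mitochondrial genes, was at 419, 367, 437 and 461 CPM in the controls, 162, 153, 164 and 274 in group A, and 194, 190, 190 and 357 in group B. It fell 2.24-fold and 1.81-fold (adjusted p = 0.000317 and 0.00468), and group B replicate 4 was the ischemic kidney nearest to the controls.

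**Figure D5:**
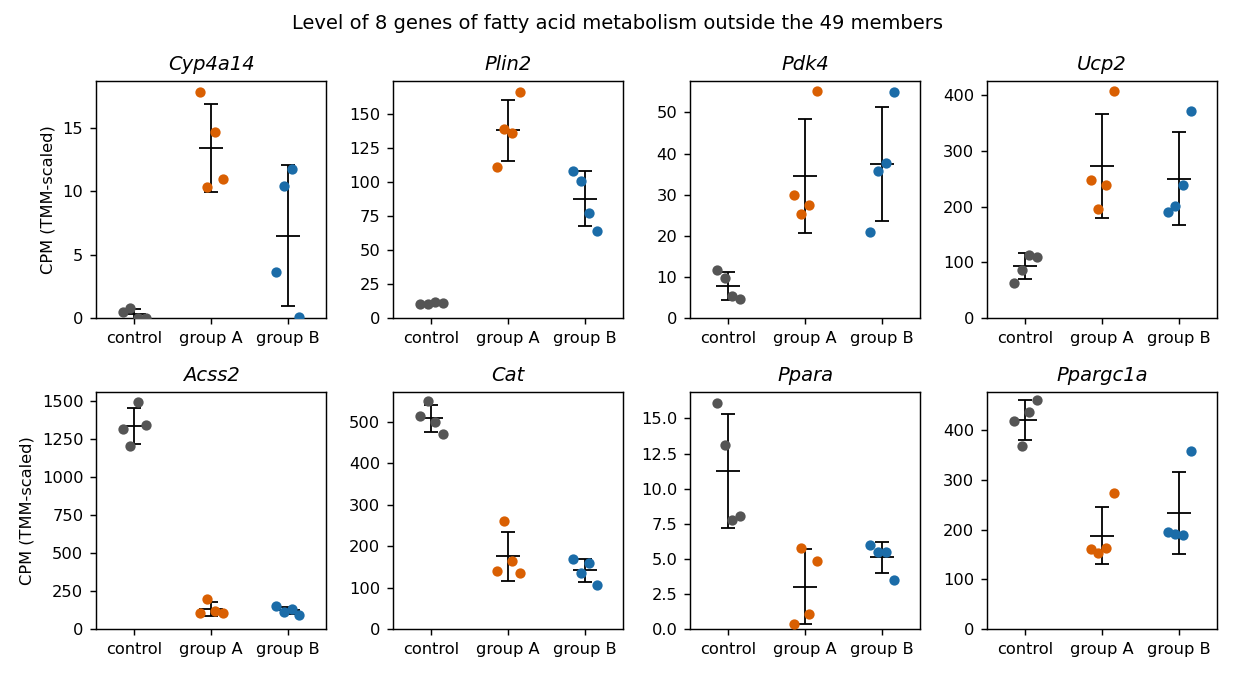
CPM of 8 genes outside the 49 members in each kidney (points), with mean and SD (n = 4 per group) on linear axes from 0. The upper row (Cyp4a14, Plin2, Pdk4, Ucp2) is higher in the ischemic groups, and the lower row (Acss2, Cat, Ppara, Ppargc1a) is lower, with Ppara not past the threshold.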

How the data were processed

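Poly(A) RNA from 12 mouse kidneys was sequenced as stranded single reads of 100 bases. The deposited counts are whole numbers per gene and were not normalised by the authors. The submitters' processing notes and the methods name FastQC, STAR, the mm10 genome, HTSeq and edgeR, and the versions, annotation release and strand setting are not given in the sources used here. Where an opposite-strand gene overlaps a member (Eri2 with Acsm3, Slc22a14 and Myd88 with Acaa1a, among others), unstranded counting could mix their reads, and reads of paralogues or of genes nested on the same strand (Podn with Scp2, Gm49387 with Hacl1, Gm45233 with Etfb) could be divided or dropped.

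Groups came from the titles. Genes were filtered with filterByExpr (minimum count 10, minimum total 15), which kept 11664 of 23420, and were fitted in edgeR 4.0.16 (R 4.3.3) with TMM factors, a coefficient for each of the 3 groups and quasi-likelihood F-tests, two-sided, with Benjamini-Hochberg adjustment at 0.05. The methods place the clamp on the left kidney, so the 4 ischemic kidneys of a group come from separate mice, and p-values measure the spread between these samples, and no pair of libraries agreed within sampling noise. Floors of 3 counts per kidney cover counting error only. Gene positions and merged exon lengths came from GENCODE M21 on GRCm38, and promoter windows from RefSeq.

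The members and lists were chosen with earlier results of these data known. Values in every kidney are given for the 4 members of each list with the largest changes among those past the threshold in both ischemic groups, for members that rose, and for Cpt1a, Acaa1a, Acaa1b, Pex5 and Pex7; Etfa and Decr1 were added after their values were seen. Of the pathway genes, the 4 largest rises and falls were named, with Cat, Slc25a20, Ppara and Ppargc1a; some genes of that rule are not reported here. Alternatives were RLE size factors, DESeq2 1.42.0, limma-trend (limma 3.58.1), other filters, a block for the replicate number, fits without the third group, leaving out each kidney, and CPM on total counts.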

Additional observations from a re-analysis of the deposited data

Results flagged for a closer look

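A kidney far from the other 3 of its group was found by Dixon's ratio, the gap to the nearest kidney over the range of the group, in 15 of 145 groups of member values, where chance gives about 1 in 20 for normally distributed values. In 6 of the 15 the other 3 kidneys were at 0, so that any value above 0 gave a ratio of 1. Among the 139 groups with more than 1 kidney above 0 there were 9. Of all 15, those in the control group were Acsm3 in replicate 1 (ratio 0.950, 280.8 CPM beside 509 to 521), Acsm5 in replicate 1 (0.838, 55.6 beside 75.6 to 79.4), Hadh in replicate 3 (0.876, 51.2 beside 30.8 to 33.3), Acss1 in replicate 3 (0.885, 24.7 beside 37.9 to 39.7), Abcd3 in replicate 3 (0.891, 248 beside 288 to 292) and Pex11a in replicate 2 (ratio 1, 0.156 beside 0).

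Those in group A were Pex6 in replicate 1 (ratio 0.831, 23.1 CPM beside 12.6 to 14.4), and, with the other 3 kidneys at 0, Pecr in replicate 1 (ratio 1, 0.540 CPM), Amacr in replicate 3 (ratio 1, 0.749 CPM) and Pex11a in replicate 3 (ratio 1, 0.617 CPM). Those in group B were Cpt2 in replicate 1 (ratio 0.882, 83.5 CPM beside 52.4 to 56.1), Pex16 in replicate 3 (0.833, 57.1 beside 28.6 to 33.3), Pex19 in replicate 2 (0.879, 8.04 beside 6.84 to 6.98), and, with the other 3 at 0, Eci1 in replicate 3 (ratio 1, 1.93 CPM) and Amacr in replicate 2 (ratio 1, 0.506 CPM). Without group B replicate 3, Pex16 passed in group B (adjusted p = 0.0466), and so did Eci1 (adjusted p = 0.0410).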

How the results depend on the processing

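Of the 25 members that passed in group A, 20 kept the call under all 19 alternative fits, and of the 29 in group B, 22 did. The calls lost were those of Hadhb, Acsl1, Hsd17b4, Pecr and Pex5 in group A and of Hadhb, Echs1, Acaa2, Acss1, Phyh, Pex5 and Pex13 in group B. Of the members that did not pass, 9 in group A and 6 in group B gained a call under at least 1 alternative. With each kidney left out in turn, 20 to 27 members were lower in group A and 23 to 29 in group B, and the median log2 fold change of the members in group B ran from -1.36 to -1.07.

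Between the ischemic groups, the count of all genes called was 1 with edgeR, 44 with DESeq2, 0 with limma-trend, 6 without a filter on low counts, 0 when only both ischemic groups entered the fit, and 0 to 7 with a kidney left out. DESeq2 called 1 member lower in group B (Acaa1b). Slc5a12, the gene called by edgeR, was not called in 12 of 19 alternatives. The causes of these differences were not tested. Some fitted sizes moved by over 1.5 times with limma-trend, to log2 fold changes of -5.34 for Acsm1, -5.17 for Acsm5, -3.95 for Pipox and 3.64 for Cyp4a14 in group B and to -4.94 for Pipox in group A. The direction turned for values near 0 only. Slc25a20 in group B was -0.0046 without a filter and ran from -0.21 to 0.12 with a kidney left out (-0.19 without control replicate 2, -0.0043 without group A replicate 4 and -0.21 without group B replicate 4). Cpt1a in group B ran from -0.56 to 0.16 with a kidney left out (0.14 without control replicate 4, and 0.16 and 0.04 without group B replicate 2 and 3). No alternative moved the median of all genes by over 0.1 on the log2 scale.

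Replicate numbers gave no sign of pairing the kidneys. The correlations of same-numbered kidneys ran from -0.055 to 0.045, 0 of 12 pairs exceeded 0.1, and 2 of 12 kidneys were closest to a kidney of their own number. With the replicate number as a block, 25 members were lower in group A and 29 in group B, 1 was higher in each, 0 differed between the ischemic groups, and 2491, 2531 and 1 of all genes were called. Under the block the log2 fold changes of Pipox were -4.94 and -3.47 and that of Cyp4a14 in group A was 6.38. Under the block Acad12 lost its calls in both ischemic groups (adjusted p = 0.115 and 0.126). With 4 kidneys a group and this spread, the 11 members at or under the floor in some kidney could not be compared closely.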

Other observations

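The other marker lists give the cell types around the tubule. Of all genes tested, 11.7% were lower and 10.5% higher in group A, and 11.9% lower and 10.9% higher in group B. Of the 6 fibroblast and mural cell markers 5 were tested, and Col1a1, Col3a1 and Acta2 rose in both ischemic groups. The other 2 tested did not pass, and 1 was below 0 in each group (log2 fold changes -0.41 and -0.53). The summed level of the list was 378% of the control mean in group A and 330.5% in group B. Of the 5 podocyte markers, 3 rose in each ischemic group, with sums of 172% and 159% of control. The other 2 did not pass in either comparison, and 1 was below 0 in group B (log2 fold change -0.14). Of the 5 intercalated cell markers Slc4a1, which red cells also express, fell in both ischemic groups. The other 4 did not pass, 3 of them had log2 fold changes above 0 in each ischemic group, and the summed level of the list was 95.8% and 127% of control. Of the 6 endothelial markers 5 were tested and Tek fell in group B. At an unadjusted p under 0.05, 2 were lower in each ischemic group, the median log2 fold changes were -0.58 and -0.88, and the summed level was 70.9% and 56.0% of control. Of the 5 macrophage markers 3 were tested. Csf1r, at 52.1 CPM of a summed 53.7 in the controls, fell in both ischemic groups, and the sum was 27.3% and 27.1% of control. Cd68 and C1qb did not pass, with log2 fold changes of -0.01 and 0.54 in group A and 1.89 and 1.09 in group B, and C1qa and Lyz2 were too low to test. No collecting duct principal cell marker passed by edgeR in either comparison with control, and none had an unadjusted p under 0.05 there. Of the 5 lymphocyte markers 2 were tested. Cd3e, with a mean of 1.83 CPM in the controls, fell in both ischemic groups, Ptprc did not pass (log2 fold changes 0.38 and 0.57), and the sum was 80.1% and 91.7% of control. Alas2, a red cell gene with a mean of 2.44 CPM in the controls, fell in group B.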
